A study of Persea americana and Macadamia integrifolia and Mangifera indica with 6 samples.

Results

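miR156 and miR157 are closely related plant microRNA families, and all of their entries among the deposited values are described here. Entries were chosen by name alone, from Arabidopsis and rice, for either arm of the hairpin. This gave 25 of 123 entries, of which 21 carry the name miR156 and 4 the name miR157, 11 from Arabidopsis and 14 from rice. Where several entries have 1 mature sequence in common, they hold identical values in every library. The 25 entries therefore hold 6 distinct sequences of the 53 distinct sequences in all, 4 of miR156 and 2 of miR157. The small RNA of leaves was sequenced from 3 fruit tree crops, avocado (Persea americana, cultivar Hass), macadamia (Macadamia integrifolia, cultivar HAES741) and mango (Mangifera indica, cultivar Kensington Pride). Each species has 1 library from mature trees that already flowered, 10 years old in avocado and macadamia and 5 years old in mango, and 1 library from juvenile trees, 1 month old. All 6 libraries came from newly emerged, fully expanded leaves. Mature leaves came from field trees, grafted on Velvick in avocado and true seedlings in mango, and juvenile leaves from seedlings in a nursery or glasshouse, so the effects of age and of growing conditions cannot be told apart. Leaves of several plants were pooled for a sample. Since a species has a single library at each age, differences within a species carry no replicate error and were not tested.

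miR156 guides the silencing of SPL transcripts, which encode SQUAMOSA PROMOTER BINDING PROTEIN-LIKE transcription factors. In Arabidopsis it is abundant in seedlings and declines as the shoot ages. The SPL proteins then accumulate, and they promote adult leaf traits, flowering and the transcription of miR172, which in turn silences AP2-like floral repressors. miR157 differs from miR156 in a few bases and also targets SPL transcripts in Arabidopsis. The mature strand of both families lies in the 5p arm of the hairpin, and the 3p strand is its partner, most of which is discarded when the mature strand is loaded into the silencing complex. The comparison of mature with juvenile leaves asks whether the level of these microRNAs follows the age of the tree.

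The study quantified miR156 by PCR with the mature sequence as its forward primer. That primer is shown because it holds the strand that pairs with SPL transcripts, written as DNA from 5′ to 3′, 20 bases long, with the seed (bases 2 to 8) in capitals.
miR156: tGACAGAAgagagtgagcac

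Of the 6 distinct sequences, one stands for 16 entries, namely Arabidopsis miR156a to miR156f and rice miR156a to miR156j, and is called miR156a below. A second stands for miR157a, miR157b and miR157c of Arabidopsis and is called miR157a. Arabidopsis miR157d is a sequence of its own, which in that species starts a base further in than miR157a. Rice miR156f-3p, miR156h-3p and miR156l-3p share the only 3p sequence, called miR156-3p. Arabidopsis miR156h and rice miR156k, each represented by 1 entry, were rare. Values are RPM, the reads per 1000000 reads of 20 to 24 nt, and every one of them is, within rounding, a whole number of reads at a depth of 1141472 to 7509125 reads per library. These depths were inferred from the values, and the read numbers and intervals rest on them. A floor of 3 reads corresponded to 0.400 RPM in mature and 0.651 RPM in juvenile avocado leaves, 1.75 and 0.416 RPM in mature and juvenile macadamia, and 0.664 and 2.63 RPM in mature and juvenile mango. Intervals are exact (Clopper-Pearson) 95% intervals on the reads, or for ratios between sequences exact conditional ones. They cover counting error only, and PCR copies are not independent molecules.

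Together the 6 sequences made up a smaller part of the microRNA reads in mature leaves of every species. They held 0.848% of the reads of all listed microRNAs in mature avocado leaves, against 12.5% in juvenile leaves. In macadamia they held 1.62% in mature and 8.84% in juvenile leaves, and in mango 0.309% in mature and 3.71% in juvenile leaves. As a part of all reads of 20 to 24 nt, this was 0.0475% in mature and 1.48% in juvenile avocado, 0.0899% in mature and 0.667% in juvenile macadamia, and 0.0513% in mature and 0.288% in juvenile mango.

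miR156a, the form that names the family, was less abundant in mature than in juvenile leaves of all 3 species, and the size of the difference varied widely. It stood at 282 RPM in mature and 7431 RPM in juvenile avocado leaves, which is 26.4-fold lower (25.3 to 27.6). Macadamia showed 456 RPM in mature and 3207 RPM in juvenile leaves, 7.03-fold lower (6.54 to 7.56). Mango had 272 RPM in mature and 397 RPM in juvenile leaves, 1.46-fold lower (1.31 to 1.62). The 3 mature libraries were thus close to one another, within 1.68-fold from lowest to highest, while the juvenile libraries spanned 18.7-fold. Juvenile mango, which is the shallowest library, stood below mature macadamia in miR156a (mature macadamia 1.15-fold higher, 1.02 to 1.29). Mature avocado and mature mango did not differ beyond counting error (1.03-fold, 0.963 to 1.11). The median log2 ratio of mature over juvenile on RPM + 1 over 35 sequences came to -0.91 for avocado, -0.38 for macadamia and 0.66 for mango, and relative to that median the log2 ratio of miR156a, on plain RPM, stood at -3.81, -2.44 and -1.20. miR156a ranked 13th, 8th and 10th by abundance among the distinct sequences of the mature avocado, macadamia and mango libraries, against 6th, 5th and 11th in the juvenile ones.

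miR157a was also less abundant in mature leaves throughout, by at least 7.76-fold. Its level was within 2-fold of that of miR156a in every library but juvenile mango. It had 165 RPM in mature and 6732 RPM in juvenile avocado leaves, 40.8-fold lower (38.5 to 43.2). In macadamia it had 414 RPM in mature and 3215 RPM in juvenile leaves, 7.76-fold lower (7.20 to 8.37). Mango had 213 RPM in mature and 1961 RPM in juvenile leaves, 9.19-fold lower (8.51 to 9.92), which is a far larger difference than that of miR156a in the same pair of libraries. All 3 mature libraries were below all 3 juvenile libraries in miR157a, which was not so for miR156a. Relative to the median of these sequences its log2 ratios on plain RPM were -4.44 in avocado, -2.58 in macadamia and -3.86 in mango. The levels spanned 2.51-fold over the mature and 3.43-fold over the juvenile libraries, and no neighbours in the order of the 6 libraries had an interval of their ratio that held 1. In rank, miR157a was 15th, 9th and 12th in mature avocado, macadamia and mango, against 7th, 4th and 5th in the juvenile libraries.

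miR157d was the less abundant of the miR157 sequences and was likewise lower in mature leaves throughout. It had 12.4 RPM in mature and 414 RPM in juvenile avocado leaves, 33.4-fold lower (27.2 to 41.6). Macadamia had 12.8 RPM in mature and 115 RPM in juvenile leaves, 9.01-fold lower (5.91 to 14.5), on 22 reads in the mature library. In mango it was 25.7 RPM in mature and 519.5 RPM in juvenile leaves, 20.2-fold lower (16.6 to 24.9). Here too the 3 mature libraries lay below the 3 juvenile ones. Mango was the species richest in miR157d at both ages, whereas juvenile mango had the least miR156a of the juvenile libraries. The levels of mature macadamia and mature avocado did not differ beyond counting error (1.03-fold, 0.618 to 1.66).

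**Figure D1:**
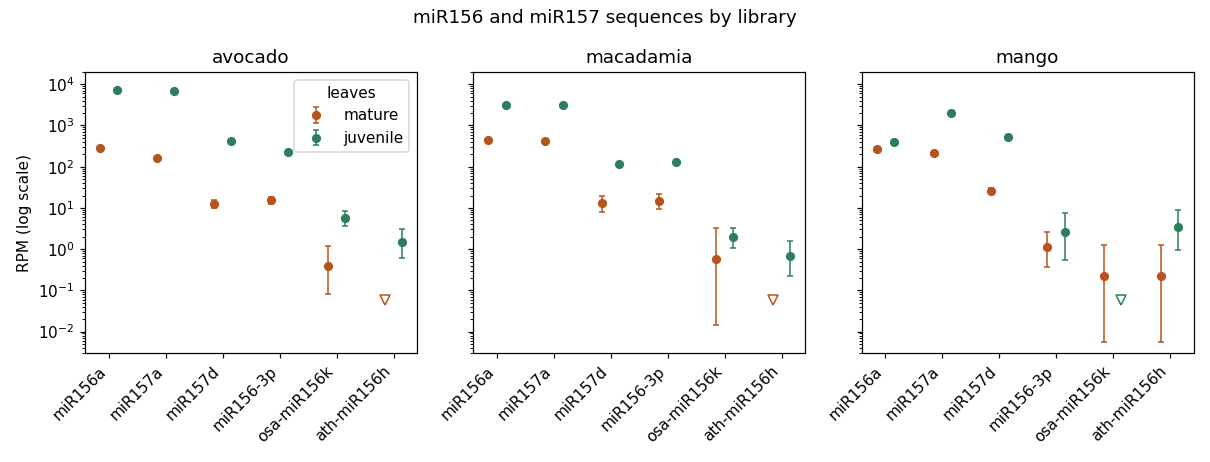
RPM of the 6 distinct miR156 and miR157 sequences on a log axis, with mature leaves on the left and juvenile leaves on the right of each pair, and exact 95% counting intervals as bars. Downward triangles mark libraries with 0 reads and are placed low on the axis for display. In avocado and macadamia the 4 sequences with the most reads were lower in mature leaves by wide margins, whereas miR156a in mango had 272 RPM in mature and 397 RPM in juvenile leaves.

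The 3p sequence was also lower in mature leaves of avocado and macadamia, in avocado by a smaller factor than miR156a, and was close to absent in mango. miR156-3p had 15.2 RPM in mature and 232 RPM in juvenile avocado leaves, 15.3-fold lower (12.6 to 18.7). In macadamia it had 14.6 RPM in mature and 128 RPM in juvenile leaves, 8.82-fold lower (5.93 to 13.7). Mango had 5 reads in mature leaves (1.11 RPM) and 3 reads in juvenile leaves (2.63 RPM), a ratio of mature over juvenile of 0.421 (0.0820 to 2.71) that shows no direction. The rare sequences had at most 26 reads. Rice miR156k had 3 reads in mature and 26 in juvenile avocado (14.1-fold lower, 4.33 to 72.9), 1 and 14 in mature and juvenile macadamia (3.33-fold lower, 0.507 to 141), and 1 and 0 in mature and juvenile mango. Arabidopsis miR156h had 0 reads in mature and 7 in juvenile avocado, at least 3.80-fold lower against a floor of 3 reads in the mature library, and at least 2.35-fold by the counting interval, which also covers the error of the juvenile reads. It had 0 and 5 reads in mature and juvenile macadamia and 1 and 4 in mature and juvenile mango. Because of these low numbers, miR156a held from 99.1% to 99.9% of the miR156 5p reads of every library.

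The make-up of the miR156 and miR157 reads differed between the ages, most of all in mango. miR157 held 46.7% of the 5p reads of both families in mature mango leaves (44.7 to 48.8), against 86.1% in juvenile leaves (84.9 to 87.3). In avocado it held 38.6% in mature leaves (37.0 to 40.3) and 49.0% in juvenile leaves (48.6 to 49.4), and in macadamia 48.3% in mature (45.8 to 50.9) and 50.9% in juvenile leaves (50.5 to 51.4). Juvenile mango thus stood apart from the other 5 libraries, in which the share of miR157 lay between 38.6% and 50.9%.

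**Figure D2:**
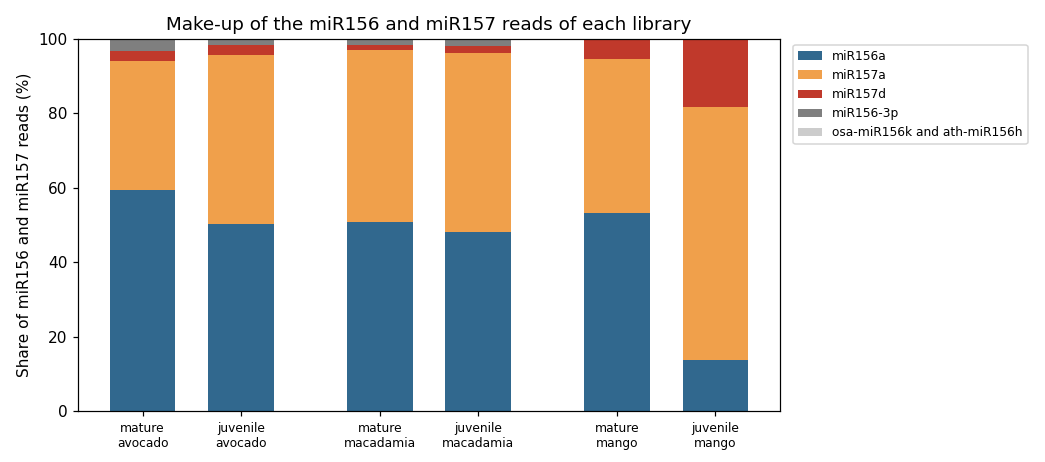
Share of each sequence in the miR156 and miR157 reads of each library, in percent, with mature left of juvenile for each species. miR156a made up 53.1% of these reads in mature mango and 13.8% in juvenile mango, while in the other 4 libraries it lay between 48.1% and 59.3%.

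Ratios between sequences of the same library do not depend on how the library was scaled, and they showed the same contrast. In mango there were 0.784 miR157a reads for each miR156a read in mature leaves and 4.94 in juvenile leaves, a 6.30-fold lower ratio in mature leaves (5.52 to 7.21). Avocado had 0.587 in mature and 0.906 in juvenile leaves, 1.54-fold lower (1.44 to 1.66). In macadamia the ratio was 0.908 in mature and 1.00 in juvenile leaves, and the interval of the 1.10-fold difference held 1 (0.994 to 1.23). The ratio was lower in mature leaves of 3 of 3 species, and the change from species to species was not tested, since each rests on a single pair of libraries.

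miR157d took a larger part of the miR157 reads in mango than elsewhere, namely 10.7% in mature leaves (8.96 to 12.7) and 20.9% in juvenile leaves (19.5 to 22.5). In avocado it took 6.98% in mature (5.67 to 8.48) and 5.80% in juvenile leaves (5.55 to 6.05), and in macadamia 3.00% in mature (1.89 to 4.50) and 3.47% in juvenile leaves (3.24 to 3.70). miR157d over miR157a was 2.20-fold lower in mature mango (1.77 to 2.75), whereas the interval of the change held 1 in avocado and in macadamia. Whether reads of miR157d were also counted under miR157a, which contains it in Arabidopsis, was not tested.

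The 3p strand made up 5.11% of the miR156 reads in mature avocado leaves (4.23 to 6.11) and 3.02% in juvenile leaves (2.84 to 3.20). In macadamia it made up 3.09% in mature (2.01 to 4.52) and 3.84% in juvenile leaves (3.60 to 4.09), with intervals that overlap. In mango it made up 0.404% in mature (0.131 to 0.941) and 0.652% in juvenile leaves (0.135 to 1.89). The 3p sequence counted is that of rice, and a mango 3p strand of another sequence would not have been counted. The level of miR156-3p spanned 13.7-fold over the mature and 88.1-fold over the juvenile libraries, more than any of the 3 abundant 5p sequences. Mango was the lowest at both ages, on 5 reads in mature and 3 in juvenile leaves, so both spans are imprecise.

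**Figure D3:**
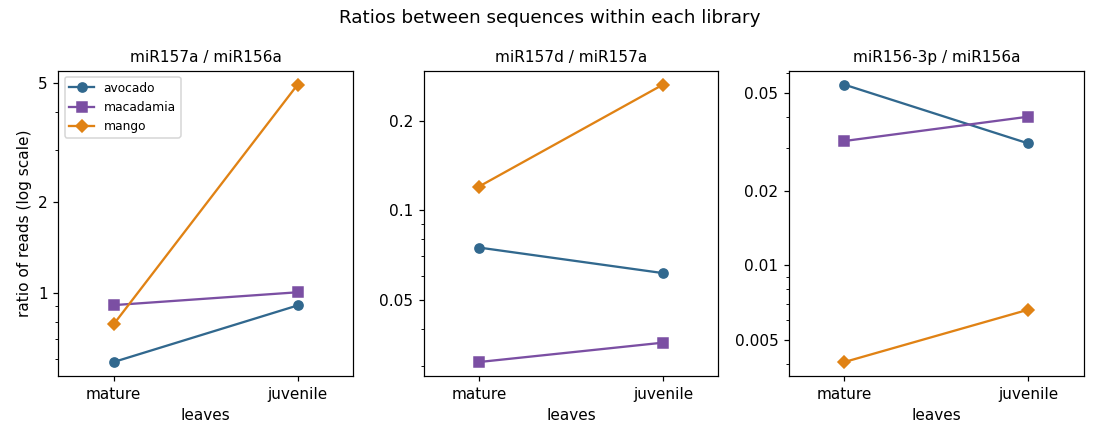
Ratios of reads between sequences within each library, on log axes, with mature leaves left and juvenile leaves right and a line for each species. The miR157a to miR156a ratio lay between 0.587 and 0.908 in the mature libraries, while juvenile mango stood apart at 4.94. The miR156-3p to miR156a ratio was higher in mature than in juvenile leaves in avocado only, and in mango it rests on 5 and 3 reads of the 3p strand.

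The members were next set beside all distinct sequences that reached 10 RPM in a library of the species. In avocado 4 of 4 miR156 and miR157 sequences were lower in mature leaves by 2-fold or more, as were 52.9% of all 34 sequences. In macadamia 4 of 4 were at least 2-fold lower, beside 32.4% of 34 sequences, and in mango 2 of 3, miR157a and miR157d, beside 31.0% of 29 sequences. None of the members past this filter was at least 2-fold higher in any species, where 14.7%, 8.82% and 37.9% of all sequences were in mature avocado, macadamia and mango. On the log2(RPM + 1) scale the median log2 ratio of mature over juvenile was -4.84 for the 4 members in avocado and -0.96 for all sequences. In macadamia these medians were -3.004 and -0.36, and in mango -3.19 for 3 sequences and 0.45 for all. Of the 34 sequences in avocado, miR157a, miR157d, miR156a and miR156-3p took the third to the sixth lowest place. In macadamia miR157d, miR156-3p and miR157a took the second to the fourth lowest and miR156a the sixth. In mango miR157d was the second and miR157a the fourth lowest of 29, and miR156a was in place 12. A shared direction was not particular to the members. Of 23 sequences with at least 10 RPM in a library of every species, 7 were lower in mature leaves of all 3 species, including 3 of 3 members, and 2 were higher.

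**Figure D4:**
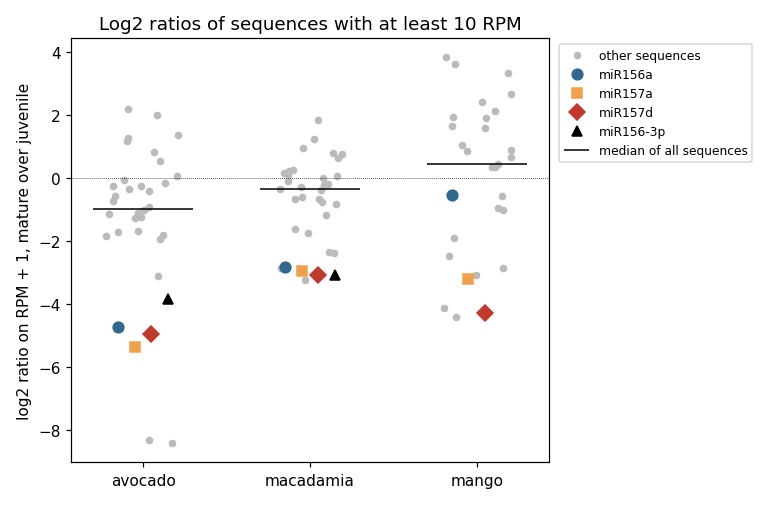
Log2 ratio of mature over juvenile on RPM + 1 for every distinct sequence that reached 10 RPM at either age, by species. Coloured or black symbols are the miR156 and miR157 sequences, grey points the others, and the line is the median of all. The marked sequences lie near the low end in avocado and macadamia, whereas in mango miR156a, at -0.54, lies in the middle of the spread.

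The shared difference between mature and juvenile leaves was tested with limma on log2(RPM + 1), with the 3 species as replicates. Growing conditions changed along with age, so the test cannot separate them. The fit had species as a block and took 35 sequences whose mean over the 6 libraries was at least 10 RPM. Of the 6 distinct sequences 4 passed this filter, while miR156h and miR156k did not. miR157d fell by 4.11 on the log2 scale in mature leaves, with a standard error of 0.88 and a limma adjusted p of 0.013, and was lower in 3 of 3 species. miR157a fell by 3.83, with a standard error of 0.90 and a limma adjusted p of 0.014, also in 3 of 3 species. These were 2 of the 4 members tested, and they were also the only calls among all 35 sequences (5.71% called lower and 0.00% higher). miR156a had a log2 fold change of -2.69 (95% interval -4.76 to -0.61) and miR156-3p one of -2.56 (-4.54 to -0.59). Neither passed the threshold after adjustment (limma adjusted p = 0.13 for each). miR156a was lower in 3 of 3 species, and miR156-3p in avocado and macadamia, with too few reads in mango to give a direction. The miR157d and miR157a reads come from the same libraries and the sequences are near copies, so these calls do not count as independent. Without Benjamini-Hochberg adjustment 6 sequences had a limma p under 0.05, of which 4 were the members tested and 0 were higher in mature leaves.

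The miR157 calls depended on the species and the settings. Without avocado, miR157d was called (adjusted p = 0.034 from limma) and miR157a was not (0.055). In that fit every member tested had the same standard error of 1.02, so the call used no spread of miR157d itself. Without macadamia miR157d and miR157a both had an adjusted p of 0.33 from limma, and without mango 0.19. Neither was called with a pseudocount of 0.1 or 5 RPM, with no filter on low values or with no species block. Over all settings the adjusted p ran from 7.6e-04 to 0.33 for miR157d and from 0.0010 to 0.33 for miR157a, and the direction was lower in each. The miR156a estimate ran from -3.76 without mango to -1.68 without avocado, with adjusted p from 0.032 to 0.99. The lowest of these was reached by testing only the 23 sequences with at least 10 RPM in every species.

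**Figure D5:**
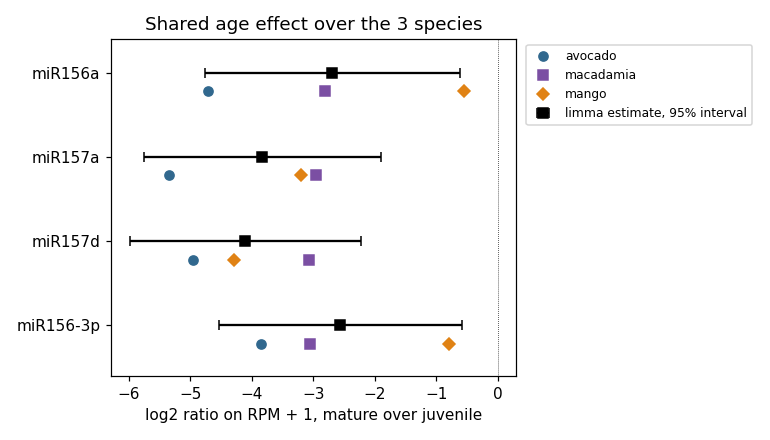
Log2 fold change of mature over juvenile for the 4 sequences tested, as the limma estimate with its 95% interval (black squares) and the log2 ratio of each species on RPM + 1 (coloured symbols). The species lie closest together for miR157d, from -4.96 to -3.08, and furthest apart for miR156a, from -4.72 in avocado to -0.54 in mango.

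Of the 7 families listed as relatives of miR156 or as parts of the same age pathway, 5 are among the entries, and miR529 and miR535, which also target SPL transcripts in rice, were not analysed here. miR172, which acts downstream of the SPL proteins, was higher in mature leaves of each species when summed, the opposite direction to miR156 and miR157. Relative to the median log2 ratio of each species, this sum stood at 2.92 in avocado, 1.02 in macadamia and only 0.23 in mango. Its rarer sequence, Arabidopsis miR172e-3p, was higher in mature avocado and mango. In macadamia that sequence had 1 read in mature and 14 in juvenile leaves. The sequence of miR172 that could be tested, that of Arabidopsis miR172a, had a log2 fold change of 1.17 with a limma adjusted p of 0.62, and was higher in 3 of 3 species. miR159, which in Arabidopsis holds down MYB33, an activator of miR156 genes, had log2 ratios of -0.71 in avocado, -0.27 in macadamia and 1.93 in mango on RPM + 1. miR319, a relative of miR159 that targets TCP transcripts, had at most 5 reads in any library. No miR319 sequence passed the filter for the test. None of the 7 sequences of miR172 and miR159 that were tested was called in either direction, and 0 had an unadjusted limma p under 0.05.

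Summed over its 5p and unarmed entries, miR156 had log2 ratios of mature over juvenile of -4.72 in avocado, -2.81 in macadamia and -0.55 in mango on RPM + 1. Likeness to this pattern was measured as the root mean square difference of the 3 ratios, over 3 pairs of libraries. Apart from miR157, at a root mean square difference of 1.67, the families most like it were miR390 (1.84), miR164 (2.17) and miR396 (2.34), and miR172 was the least like it of the 20 families (4.44). The log2 ratio of miR390 came to -1.82 for avocado, -2.85 for macadamia and -1.89 for mango, so even the closest of these families differed from miR156 by more than 2 log2 units in avocado. The miR396 sum joins sequences that went opposite ways in mango. There Arabidopsis miR396a-5p was 2.06-fold higher and miR396b-5p 8.31-fold lower in mature leaves, while both were lower in mature avocado and macadamia.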

How the data were processed

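Leaf small RNA of 6 libraries, 1 per species and age, was analysed from values that the authors deposited as RPM. Trim Galore was used by the authors to take off adapters, after which they kept the short trimmed reads, discarded ribosomal reads with BBduk and quantified the miRBase mature miRNAs of Arabidopsis and rice with SCRAM. RPM refers to 1000000 reads of 20 to 24 nt. Versions and allowed mismatches: not given in the sources used here. Sequences that differ from those references may be left out, and RPM is a share, so all values of a library shift when other small RNAs change. Columns were assigned by title and description, and 0 were left over.

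Entries of a family with identical values were counted once. Depth was the smallest number of reads that made all 123 values of a library whole within the rounding to 3 decimals. A whole multiple of it would fit as well, and would narrow the intervals. Log ratios given on RPM + 1 and the limma values use a pseudocount of 1 RPM, which understates the change of low sequences. Folds use plain RPM, as do log2 ratios given relative to the median, from which the median on RPM + 1 was subtracted. limma 3.58.1 in R 4.3.3 was fitted to sequences with a mean of at least 10 RPM, leaving 2 residual degrees of freedom, with a threshold of 0.05 on Benjamini-Hochberg adjusted p. Species stand in for replicates, and limma pools the spread over sequences. In the reported fit the pooled spread had 11.96 prior degrees of freedom, against 2 residual ones for a sequence itself. The limma p-values and intervals therefore rest mostly on the spread of all tested sequences between these 3 pairs of libraries. The own standard deviation was 0.67 for miR157d and 1.48 for miR156a, while their limma standard errors were 0.88 and 0.97. In the fit that called miR156a the prior ones were infinite, and miR156a, miR157a and miR157d had the same standard error of 0.89. The prior ones were also infinite in the fit without avocado, which called miR157d. Intervals and ratios came from scipy 1.17.1, numpy 2.4.6 and pandas 2.3.3 under Python 3.11.15, and plots from matplotlib 3.10.9. The depth search, the intervals and the limma step were tested on simulated data. For limma these were high values with the same spread for all sequences. They therefore do not cover low values, the choice of pseudocount or spreads that differ between sequences.

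The text names every distinct miR156 and miR157 sequence, the related families, the miR156 primer and the 3 families most like miR156. Members and lists were chosen with earlier results of these data known. Alternatives were other pseudocounts, filters, folds and scalings, no species block, sums per family and arm, and leaving out each species. The PCR measurements of the study were not analysed here.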

Additional observations from a re-analysis of the deposited data

Results flagged for a closer look

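The point values below had opposite signs in different species, with 1 library per species and age, and none of these differences was tested. Several of them rest on few reads or lie within counting error in a species. The log2 change of the miR156-3p to miR156a ratio, mature over juvenile, came to 0.79 in avocado leaves, -0.33 in macadamia leaves and -0.70 in mango leaves, and the avocado value exceeded the mango value by 1.495. In mango that ratio rests on 5 and 3 reads of the 3p strand in mature and juvenile leaves. The counting interval of its change held no change in macadamia and in mango. The log2 change of the miR157d to miR157a ratio came to 0.29 for avocado, -0.22 for macadamia and -1.14 for mango, an avocado value 1.42 above that of mango, and its counting interval held no change in avocado and macadamia. Rice miR156k had a log2 ratio on RPM + 1 of 0.29 in mango, from 1 read in mature and 0 in juvenile leaves, against -2.25 in avocado, a difference of 2.54. For miR159 the mango log2 ratio exceeded that of avocado by 2.63. For miR319, which had at most 5 reads in any library, the avocado log2 ratio exceeded that of mango by 2.03.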

How the results depend on the processing

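Every log2 ratio of the abundant miR156 and miR157 sequences stayed below 0 under each alternative scaling, sum and pseudocount run. The calls were less stable. Of the members tested by limma, 2 were called lower in mature leaves as reported, 0 with a pseudocount of 0.1 or 5 RPM, 0 with no filter, 0 with no species block, 1 with sums per family and arm (miR157), and from 0 to 1 when a species was left out. The no-filter fit tested more sequences, and there the unadjusted limma p of miR157d was 0.0011, against 3.6e-04 in the fit with the filter. For miR157a the unadjusted limma p was 0.0026 without and 8.0e-04 with the filter. Why the calls changed was not tested for any setting. The rescaled fit called 2, and testing only sequences with at least 10 RPM in a library of every species called 3 of 3 members lower, miR156a among them. These were the only calls among 35 sequences in the rescaled fit and among 23 in the restricted one. Over all that was tested, the sums gave 1 call of 22 and the fit without avocado 1 of 33. The species block pairs the libraries of each species, and the labels give no replicate numbers for another pairing. The count test planned on whole reads was not run, because the table lists too few low values to check its read steps independently of the inferred depth.

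Relative to the median log2 ratio of each species, those of summed miR156 5p were -3.81, -2.43 and -1.21 in avocado, macadamia and mango. Those of miR157 were -4.42, -2.59 and -4.03, and that of miR156-3p in avocado was -3.02. With its most abundant sequence alone, miR157 in mango was at -3.20 on plain RPM. With no filter, 4 of 5 member sequences in place of 2 of 3 were at least 2-fold lower in mature mango. The added ones were miR156-3p and miR156h, with at most 5 reads in either mango library, and for miR156-3p the counting interval held no change. The share over all sequences is not given for that setting. Counting every listed entry, which weights miR156a by its 16 entries, the miR157 share of 5p reads was 10.1% and 14.8% in mature and juvenile avocado. It was 14.7% and 16.0% in mature and juvenile macadamia, and 13.3% and 50.2% in mature and juvenile mango. The 3p share of all reads of both families was then 0.900% and 0.496% in mature and juvenile avocado, 0.508% and 0.626% in mature and juvenile macadamia, and 0.0661% in mature mango. With the most abundant sequence of each family and arm alone, the miR157 share was 37.0% and 47.5% in mature and juvenile avocado, 50.1% in juvenile macadamia, and 43.9% and 83.2% in mature and juvenile mango. The depth limits what can be said of miR156-3p in mango, miR156h and miR156k.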
